A study of Mus musculus with 8 samples.

Results

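A set of 10 receptors of the liver sinusoid was followed across the 8 samples of the series. It holds the stabilins Stab1 and Stab2, the hyaluronan receptor Lyve1, the mannose receptor Mrc1, the Fc receptor Fcgr2b, the class B scavenger receptors Scarb1 and Cd36, the class F receptor Scarf1, the low density lipoprotein (LDL) receptor relative Lrp1 and the collectin Colec12. The genes were chosen by gene symbol as known receptors of sinusoidal cells, with earlier results of these data known. All 10 were found among the 25428 rows of the table, each row standing for 1 Entrez gene. LSECs (liver sinusoidal endothelial cells) were sorted with beads that bind CD146 on the surface of endothelium from female C57BL/6J mice aged 2 months, and their RNA was measured on Affymetrix arrays. In all, 4 samples were Ctrl and 4 were Ctnnb1OE-EC, and each held the cells of 2 pooled mice. Ctnnb1OE-EC mice carried Clec4g-iCre tg/wt and Ctnnb1(Ex3) fl/wt, so that Cre recombinase driven by the Clec4g promoter removed an exon of Ctnnb1 and left a stabilized β-catenin. This protein carries the canonical Wnt signal into the nucleus. The labels call the Ctrl cells wild type and do not say whether they carried Clec4g-iCre or the floxed allele. As limits of the model, the study describes Cre activity also in endothelial cells of the heart, and cardiac dysfunction in these mice.

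LSECs line the sinusoids as a fenestrated endothelium without a continuous basement membrane, and they are among the most active scavenger cells of the body. Their receptors bind waste macromolecules in the blood, such as hyaluronan, collagen chains, mannose-rich glycoproteins, modified lipoproteins and small immune complexes. The ligands are taken up mostly through clathrin-coated pits, sorted in early endosomes and degraded in lysosomes. β-catenin acts on its target genes together with DNA-binding factors of the TCF/LEF family, whose sites contain the letters CTTTGA or CTTTGT.

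A window of RefSeq sequence around the gene start (GRCm38.p6, 250 bases before to 50 bases after it) was at hand for 6 of the 10 receptors, namely Stab1, Stab2, Mrc1, Fcgr2b, Cd36 and Lrp1. The letters CTTTGA and CTTTGT were searched on both strands, so that TCAAAG and ACAAAG also counted, and no position was counted under both motifs. CTTTGA was in 16% and CTTTGT in 18.7% of the 32817 windows of the table, and either was in 31.2%. Of the 6 receptor windows, those of Mrc1 and Cd36 held a match and those of Stab1, Stab2, Fcgr2b and Lrp1 held none of these letters. Both windows with a match are shown because they are the ones with letters of this kind, with the matches in capitals.
Mrc1, chr2:14229164-14229463, plus strand: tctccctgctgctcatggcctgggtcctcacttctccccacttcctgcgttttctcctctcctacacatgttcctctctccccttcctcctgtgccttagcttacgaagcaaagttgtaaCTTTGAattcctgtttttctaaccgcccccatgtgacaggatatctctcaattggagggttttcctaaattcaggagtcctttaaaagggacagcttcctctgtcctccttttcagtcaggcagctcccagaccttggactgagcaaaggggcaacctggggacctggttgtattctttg
Cd36, chr5:17835847-17836146, minus strand: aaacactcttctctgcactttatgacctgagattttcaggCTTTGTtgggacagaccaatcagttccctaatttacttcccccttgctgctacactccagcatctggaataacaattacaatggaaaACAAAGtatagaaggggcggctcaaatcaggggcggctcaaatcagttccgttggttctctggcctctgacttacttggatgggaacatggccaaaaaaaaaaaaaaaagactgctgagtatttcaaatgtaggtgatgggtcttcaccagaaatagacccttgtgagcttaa
The Mrc1 window held CTTTGA 130 bases before the start. The Cd36 window held CTTTGT 210 bases and ACAAAG 123 bases before it. A match describes the letters in the window and does not show a site in use. Lyve1, Scarb1, Scarf1 and Colec12 had no window in the table used here.

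The samples were compared with limma on the log2 values, and a row was called where its p, after Benjamini-Hochberg adjustment for every row of the table, was under 0.05. Differences below are Ctnnb1OE-EC minus Ctrl on the log2 scale, and 4 samples stand behind each group mean. At this threshold 0.920% of all rows were called, 0.385% lower and 0.535% higher in Ctnnb1OE-EC LSECs. Of the 10 receptors, 1 was lower past the test, namely Lyve1, and 0 were higher. Means of 6 receptors were lower and of 4 were higher, beside 53.6% of all rows with a lower mean, and the median difference was -0.11 over the receptors and -0.01 over all rows. At an unadjusted p under 0.05, 4 receptors were lower (Lyve1, Mrc1, Colec12 and Stab1), beside 6.02% of all rows. The 4 samples of each genotype did not overlap for 2 receptors, Lyve1 and Mrc1, both lower in Ctnnb1OE-EC, beside 4.04% of all rows, and 0 receptors were higher without overlap, beside 3.55%. No receptor reached an unadjusted p under 0.05 in the other direction (0 of 10, beside 5.49% of all rows). The genotype was read from Axin2, a direct target gene of β-catenin, whose mean was 5.23 in Ctrl and 7.38 in Ctnnb1OE-EC (2.14, limma adjusted p = 0.00136). On the first principal component of all rows (30.6% of the variance) the highest scores were those of Ctnnb1OE-EC replicates 3 and 4 (43.1 and 36.3, the other samples at most 3.59), and calls are therefore also given without both. They were not the only samples far out. On the second component (22.5%) Ctrl replicate 3 stood at -44.1 and Ctnnb1OE-EC replicate 1 at 37.3. Ctnnb1 itself is measured as 1 row for the whole gene, which does not resolve the removed exon, and differed by 0.34 (adjusted p = 0.361).

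**Figure D1:**
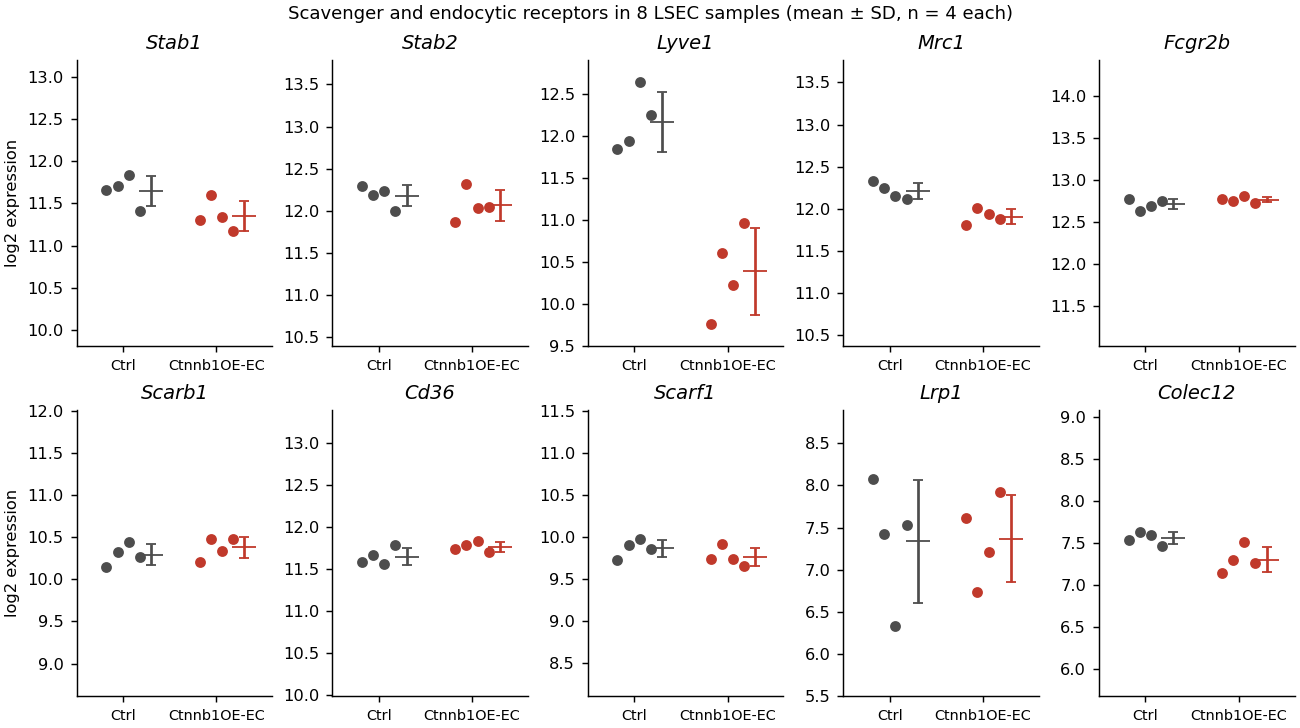
Log2 expression of the 10 receptors in 4 Ctrl samples (grey) and 4 Ctnnb1OE-EC samples (red), replicates 1 to 4 from left to right, with the mean and SD beside the points and the same span of values on every vertical axis. Lyve1 lay between 11.84 and 12.63 in Ctrl and between 9.76 and 10.96 in Ctnnb1OE-EC, while the groups overlapped or lay close together for the other receptors.

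Lyve1, a receptor for hyaluronan on the sinusoidal and lymphatic endothelium, fell by 1.78 on the log2 scale. It read 11.84, 11.94, 12.63 and 12.24 in Ctrl replicates 1 to 4 and 9.76, 10.61, 10.22 and 10.96 in Ctnnb1OE-EC replicates 1 to 4. The highest Ctnnb1OE-EC sample lay 0.88 below the lowest Ctrl sample, and the spread within Ctnnb1OE-EC was wider than within Ctrl, with replicate 1 lowest and replicate 4 highest. The means were 12.16 ± 0.36 in Ctrl and 10.39 ± 0.51 in Ctnnb1OE-EC (SD), a level 3.42-fold lower, with a 95% confidence interval of 2.27-fold to 5.17-fold (limma SE 0.26 on the log2 scale, adjusted p = 0.0178). An exact permutation test (two-sided, 70 possible assignments) gave p = 0.0286, which is the smallest value that this design allows. The size stayed near this value when any 1 sample was left out (-1.97 to -1.57), but the call was lost without Ctrl replicate 4 (limma adjusted p = 0.0697) and without Ctnnb1OE-EC replicate 3 (0.0712). Without Ctnnb1OE-EC replicates 3 and 4 together it was at -1.98 and not called (adjusted p = 0.0756). In RNA from many cells, fewer LSECs with the transcript and less transcript per LSEC cannot be told apart.

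Both stabilins, large receptors of the sinusoidal endothelium, stayed at high values in both genotypes. Stab1, which takes up oxidized LDL and other ligands, read 11.65, 11.71, 11.84 and 11.41 in Ctrl replicates 1 to 4 and 11.30, 11.60, 11.34 and 11.17 in Ctnnb1OE-EC replicates 1 to 4. In Ctnnb1OE-EC 3 of the 4 samples lay below every Ctrl sample, and replicate 2 lay among them. The difference was -0.30 (limma SE 0.13, 95% interval -0.58 to -0.01), with an adjusted p of 0.406 and an exact permutation p of 0.0571. Stab2, the main clearance receptor for hyaluronan in the blood, read 12.29, 12.19, 12.23 and 12.00 in Ctrl and 11.87, 12.31, 12.03 and 12.05 in Ctnnb1OE-EC. The groups overlapped, and the highest sample of all was a Ctnnb1OE-EC sample. Its difference was -0.11 (SE 0.12, interval -0.38 to 0.15, adjusted p = 0.784), an interval that leaves room for a level up to 1.30-fold lower.

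Mrc1, the mannose receptor, which binds mannose-rich glycoproteins and collagen chains, was lower by a small amount in all Ctnnb1OE-EC samples. It read 12.33, 12.24, 12.16 and 12.12 in Ctrl replicates 1 to 4 and 11.80, 12.01, 11.94 and 11.88 in Ctnnb1OE-EC replicates 1 to 4. The groups were 0.11 apart without overlap, and the SD within each was 0.09. The difference of -0.30 (limma SE 0.09, 95% interval -0.51 to -0.10) did not pass the test over all rows (adjusted p = 0.219), and the exact permutation p was 0.0286. Its promoter window, shown above, is 1 of the 2 with a match, beside 31.2% of all windows. A link between the match and the difference was not tested.

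Fcgr2b, the inhibitory Fc receptor that clears small immune complexes, was measured with the least spread of the 10 receptors. It read 12.77, 12.63, 12.69 and 12.75 in Ctrl and 12.77, 12.75, 12.81 and 12.73 in Ctnnb1OE-EC. The samples of both genotypes lay within each other's reach. The difference was 0.05 (SE 0.08, interval -0.12 to 0.23, limma adjusted p = 0.863), so changes larger than 1.17-fold upward or 1.09-fold downward lay outside the interval.

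The class B scavenger receptors had slightly higher means in Ctnnb1OE-EC LSECs, and neither passed the test. Scarb1, the receptor for high density lipoprotein, read 10.15, 10.33, 10.44 and 10.26 in Ctrl and 10.21, 10.48, 10.34 and 10.48 in Ctnnb1OE-EC, a difference of 0.08 (SE 0.10, interval -0.15 to 0.32, limma adjusted p = 0.822). Cd36, a receptor for long-chain fatty acids and oxidized LDL, read 11.58, 11.67, 11.56 and 11.79 in Ctrl and 11.73, 11.79, 11.83 and 11.71 in Ctnnb1OE-EC, a difference of 0.12 (SE 0.09, interval -0.08 to 0.31, adjusted p = 0.683). For both genes the Ctrl and Ctnnb1OE-EC samples overlapped. The Cd36 window is the one with 2 matches, and a link between them and its values was not tested.

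Scarf1, an endothelial receptor for modified LDL, read 9.73, 9.91, 9.97 and 9.86 in Ctrl and 9.73, 9.92, 9.74 and 9.65 in Ctnnb1OE-EC. The groups overlapped, and the difference was -0.10 (SE 0.10, interval -0.32 to 0.11, limma adjusted p = 0.759). Colec12, a collectin with a collagen-like domain that binds sugars of microbes and modified LDL, read 7.53, 7.63, 7.60 and 7.46 in Ctrl and 7.14, 7.29, 7.51 and 7.27 in Ctnnb1OE-EC. In Ctnnb1OE-EC 3 of 4 samples lay below every Ctrl sample, while replicate 3 lay among them. The difference was -0.25 (SE 0.10, interval -0.48 to -0.02), with a limma adjusted p of 0.379 and an exact permutation p of 0.0571.

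**Figure D2:**
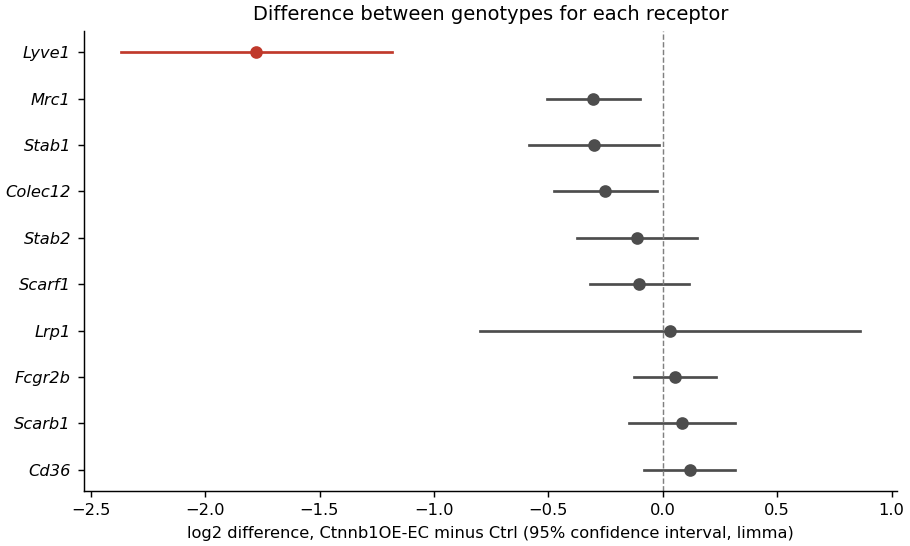
Difference in log2 expression, Ctnnb1OE-EC minus Ctrl, for each receptor with its 95% confidence interval from limma (4 samples in each group). The receptor in red, Lyve1, is the one past an adjusted p of 0.05, and its interval (-2.37 to -1.18) does not reach those of Mrc1 (-0.51 to -0.10), Stab1 (-0.58 to -0.01) or Colec12 (-0.48 to -0.02), while the interval of Lrp1 is the widest (-0.80 to 0.86). Separate intervals do not test whether receptors differ in their change. In the exact permutation tests of that question, 0 of 45 pairs had an adjusted p under 0.05 (smallest 0.0918).

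Lrp1, a large receptor for lipoprotein remnants and complexes of proteases with their inhibitors, varied most among samples of the same genotype. It read 8.07, 7.42, 6.33 and 7.53 in Ctrl replicates 1 to 4 and 7.61, 6.73, 7.21 and 7.92 in Ctnnb1OE-EC replicates 1 to 4. Ctrl replicate 3 and Ctnnb1OE-EC replicate 2 were lowest in their groups, and the groups overlapped almost fully. The difference was 0.03 (SE 0.37, interval -0.80 to 0.86, limma adjusted p = 0.985), an interval that holds changes up to 1.82-fold upward and 1.74-fold downward. Without Ctrl replicate 3 the difference was -0.30, and it was also below 0 without Ctnnb1OE-EC replicate 1 (-0.05) or replicate 4 (-0.15), so no direction can be given. Lrp1 is also expressed in hepatocytes, macrophages and fibroblasts. The mean of 12 Kupffer cell markers, relative to its Ctrl mean, was 0.70, 0.25, -0.83 and -0.12 in Ctrl replicates 1 to 4, where Lrp1 stood at 0.73, 0.08, -1.01 and 0.19. In Ctnnb1OE-EC replicates 1 to 4 the markers stood at 0.04, -1.13, -0.11 and 0.56 and Lrp1 at 0.27, -0.61, -0.12 and 0.59. The samples that were lowest in Lrp1 in each group were also lowest in the Kupffer cell markers, and the highest were highest. Low values in Ctrl replicate 3 and Ctnnb1OE-EC replicate 2 were not particular to that list. B cell markers (-0.37 and -0.19) and neutrophil and monocyte markers (-0.28 and -0.05) were lowest in their groups there too. So were the lists of other scavenger receptors (-0.30 and -0.22) and of the mannose receptor family and Fc receptors (-0.31 and -0.50). Stellate cell and fibroblast markers were also lowest in Ctrl replicate 3 (-1.19), but in Ctnnb1OE-EC they were lowest in replicate 4 (-0.10). Hepatocyte markers were lowest in Ctrl replicate 2 (-0.95) and in Ctnnb1OE-EC replicate 3 (-1.83). The part of any of these cells in the Lrp1 signal was not tested.

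**Figure D3:**
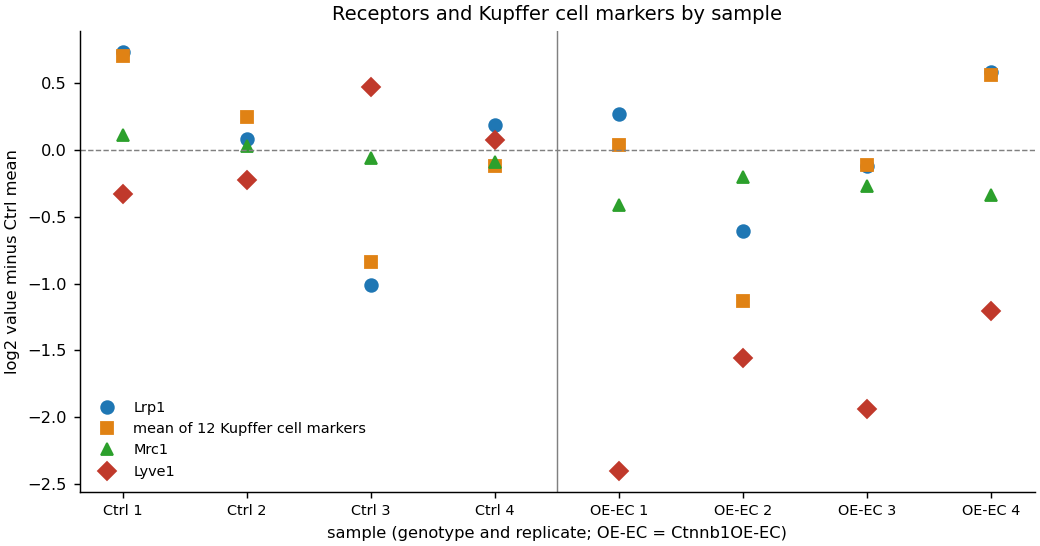
Log2 value minus the Ctrl mean for Lrp1, Mrc1 and Lyve1 and for the mean of 12 Kupffer cell markers, in each of the 8 samples (OE-EC stands for Ctnnb1OE-EC). Lrp1 and the markers were both lowest in Ctrl replicate 3 (-1.01 and -0.83) and in Ctnnb1OE-EC replicate 2 (-0.61 and -1.13) within their groups, whereas Lyve1 was below every Ctrl sample in all 4 Ctnnb1OE-EC samples.

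Markers of the labelled cell type were present in every sample. Means of the endothelial markers Cdh5, Pecam1 and Clec4g were 12.46, 11.82 and 12.88 in Ctrl and 12.44, 11.75 and 12.73 in Ctnnb1OE-EC. By limma 0 of 13 endothelial markers were called, beside 0.920% of all rows. At an unadjusted p under 0.05, 2 of the 13 were lower, Flt4 and Emcn (beside 6.02% of all rows), and 1 was higher, Mcam (beside 5.49%). Means of 10 of the 13 were lower in Ctnnb1OE-EC, beside 53.6% of all rows, and 4 were lower without overlap of the groups, beside 4.04%. These were Clec4g (-0.15), Emcn (-0.25), Dnase1l3 (-0.17) and Oit3 (-0.09), of which Dnase1l3 and Oit3 are named here because of their values. Mcam encodes CD146, the protein used for the isolation, and its mean was 9.15 in Ctrl and 9.80 in Ctnnb1OE-EC (adjusted p = 0.330). Relative to the Ctrl mean, the endothelial list ranged from -0.07 to 0.08 in Ctrl and from -0.07 to 0.05 in Ctnnb1OE-EC, a mean in which Mcam (0.65) stands against the markers with lower values. The differences of the 13 markers ranged from -0.28 to 0.65 with a median of -0.07, beside -1.78 for Lyve1, and their part in the differences of Lyve1, Mrc1, Stab1 and Colec12 was not tested. RNA of other cells was present too, with Clec4f of Kupffer cells at 9.96 in Ctrl and 9.76 in Ctnnb1OE-EC, and Alb of hepatocytes at 11.64 and 11.50. Markers of lymphatic endothelium, which also expresses Lyve1, ranged from -0.37 to 0.15 in Ctrl and from -0.21 to 0.54 in Ctnnb1OE-EC, and the mean of Prox1, the defining factor of that lineage, was 4.90 and 5.82 (adjusted p = 0.267). Ranges in Ctrl and in Ctnnb1OE-EC were -0.95 to 0.97 and -1.83 to 1.41 for hepatocyte markers, and -1.19 to 0.49 and -0.10 to 0.31 for stellate cell and fibroblast markers. For B cells they were -0.37 to 0.57 and -0.19 to 1.04, for neutrophils and monocytes -0.28 to 0.52 and -0.05 to 1.03, for T and NK cells -0.26 to 0.36 and -0.66 to 0.58, and for megakaryocytes and erythroid cells -0.08 to 0.19 and -0.17 to 0.45. No marker of any of these lists was called by limma (0 in each, beside 0.920% of all rows). At that share 0 is a common outcome for lists this short, so it does not show equal cell content. Among the Kupffer cell markers 10 of the 12 means and among the hepatocyte markers 8 of 9 were lower, beside 53.6% of all rows. Their median differences were -0.17 and -0.39. At an unadjusted p under 0.05, Slc40a1 was lower among the Kupffer cell markers (-0.39, groups without overlap, adjusted p = 0.278). In the other direction stood Fcer2a among the B cell markers (2.21, adjusted p = 0.210), Ngp (1.23, groups without overlap, adjusted p = 0.242) and Lcn2 (1.39, adjusted p = 0.433) among the neutrophil and monocyte markers, and Prox1. Means of 5 of 7 B cell markers, 7 of 8 neutrophil and monocyte markers, 7 of 8 T and NK cell markers and 6 of 6 megakaryocyte and erythroid markers were higher. Over all rows this was so for 11809 of 25428. Median differences of these lists were 0.25, 0.48, 0.02 and 0.25 in this order. Those of the T and NK cell markers were small, from -0.18 to 0.20. The part of other cells in the differences of the receptors was not tested.

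Whether 1 receptor changed more than another was tested on the difference of their log2 values in each sample, for all 45 pairs, with two-sided exact permutation tests. The change of Stab2 minus that of Lyve1 was 1.66, and that of Stab1 minus that of Lyve1 was 1.48, on the log2 scale. The change of Lyve1 minus that of Mrc1 was -1.47. For 8 of the 9 pairs with Lyve1 the groups were fully apart, at the smallest possible exact p of 0.0286, and the pair with Lrp1 was the exception (exact p = 0.0571). Mrc1 was also apart from Fcgr2b (-0.36), Scarb1 (-0.39) and Cd36 (-0.42), each at an exact p of 0.0286. In all, 14 of the 45 pairs reached that p, and after adjustment over the 45 pairs 0 were under 0.05 (exact permutation, smallest adjusted p = 0.0918). With so few samples, 26 of the 45 pairs would have to sit at the smallest p for any to pass. The pair of stabilins differed by -0.19 in their change (exact p = 0.0857, adjusted p = 0.161).

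Rows that followed the pattern of Lyve1 most closely were ranked by the mean absolute gap to it over the 8 samples, after each gene's Ctrl mean was subtracted. Olfm1, a secreted glycoprotein, had the smallest gap (0.19). It read 9.18, 9.29, 9.26 and 9.28 in Ctrl and 6.78, 7.77, 7.31 and 7.74 in Ctnnb1OE-EC, lower by a log2 difference of -1.85 (limma adjusted p = 0.00443). The lowest Ctnnb1OE-EC sample was replicate 1 for Olfm1 and for Lyve1, a likeness that the ranking itself selects for. The highest was replicate 2 for Olfm1 (7.77) and replicate 4 for Lyve1 (10.96). Next came Col13a1, a transmembrane collagen, with a gap of 0.27 and a difference of -1.46 (adjusted p = 0.0186), and Lims2, an adaptor of focal adhesions, with a gap of 0.27 and a difference of -1.61 (adjusted p = 0.0228). Their lowest Ctnnb1OE-EC samples were replicate 3 for Col13a1 (7.41) and replicate 2 for Lims2 (6.12), unlike Lyve1. The ranking used all 8 samples, so the differences of these genes describe the likeness and are no support for it.

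In addition, 5 lists of related genes were read beside the receptors, and 69 of their 74 genes were measured. In them 41 means were lower and 28 higher in Ctnnb1OE-EC (53.6% of all rows had a lower mean), with a median difference of -0.04. By limma 2 genes were called lower (beside 0.385% of all rows) and 1 higher (beside 0.535%). Among 12 other scavenger receptors 4 means were lower and 8 higher, with a median difference of 0.07, and 1 was called. Scarb2, a lysosomal membrane protein of the same class as Scarb1 and Cd36, read 10.91, 10.86, 11.10 and 10.83 in Ctrl and 10.55, 10.40, 10.37 and 10.36 in Ctnnb1OE-EC. All its Ctnnb1OE-EC samples lay below all Ctrl samples. The difference was -0.50 (SE 0.09, limma adjusted p = 0.0495), just inside the threshold, and the call was lost when any 1 sample was left out (adjusted p 0.0714 to 0.159) or Ctnnb1OE-EC replicates 3 and 4 together (0.284).

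In the family of the mannose receptor and the Fc receptors, Pla2r1 fell while the other 7 measured genes were not called, beside 0.920% of all rows called. Pla2r1, a relative of Mrc1 that binds secreted phospholipases, read 8.71, 8.53, 8.53 and 8.70 in Ctrl and 7.32, 7.63, 6.83 and 6.71 in Ctnnb1OE-EC. Its groups were far apart, with a difference of -1.49 (SE 0.19, limma adjusted p = 0.00919), and without Ctnnb1OE-EC replicates 3 and 4 it was still called (-1.14, adjusted p = 0.0288). Fcgrt, the neonatal Fc receptor, differed by -0.14 (adjusted p = 0.665) and Fcer1g, the signaling chain of several Fc receptors, by -0.09 (adjusted p = 0.796).

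Of 11 measured genes of the LDL receptor family and its regulators, 8 means were lower and 3 higher, beside 53.6% of all rows with a lower mean. Lrp4 was called higher, beside 0.535% of all rows. At an unadjusted p under 0.05, 3 were lower and 2 higher, beside 6.02% and 5.49% of all rows. The groups did not overlap for 3 lower genes and 1 higher gene, beside 4.04% and 3.55%. Lrp4, a receptor for agrin that also takes part in Wnt signaling, read 5.11, 5.05, 5.09 and 5.16 in Ctrl and 6.38, 5.77, 6.72 and 6.42 in Ctnnb1OE-EC. Every Ctnnb1OE-EC sample was higher, by 1.22 on average (SE 0.18, limma adjusted p = 0.0166). The call was lost without Ctrl replicate 1 (adjusted p = 0.0585), 2 (0.0571) or 4 (0.0572) or without Ctnnb1OE-EC replicate 1 (0.0518), and also without Ctnnb1OE-EC replicates 3 and 4 together (0.97, adjusted p = 0.118). The Wnt co-receptors Lrp5 and Lrp6 had lower values in all Ctnnb1OE-EC samples without passing the test, by -0.49 (adjusted p = 0.115) and -0.34 (adjusted p = 0.216). Sorl1, a sorting receptor, differed by 0.42 (adjusted p = 0.392).

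By limma 0 of 11 measured genes of hyaluronan handling were called, beside 0.920% of all rows. In this list 7 means were lower and 4 higher, beside 53.6% of all rows with a lower mean. At an unadjusted p under 0.05, 1 gene was lower, beside 6.02% of all rows. Relative to the Ctrl mean, the list mean ranged from -0.04 to 0.11 in Ctrl and from -0.09 to -0.06 in Ctnnb1OE-EC. The hyaluronidases Hyal1 and Hyal2 differed by -0.56 (adjusted p = 0.410) and -0.41 (adjusted p = 0.470), the hyaluronan-binding Hmmr by 0.58 (adjusted p = 0.483) and the synthase Has2 by -0.15 (adjusted p = 0.672). Of 27 measured genes of clathrin endocytosis and early endosomes 17 means were lower and 10 higher, beside 53.6% of all rows with a lower mean. Of these genes 0 were called by limma, beside 0.920% of all rows. At an unadjusted p under 0.05, 2 were lower, beside 6.02% of all rows. Eps15, a protein of the clathrin coat, had groups that did not overlap and a difference of -0.39 (adjusted p = 0.106). Ap2m1, a subunit of the adaptor complex AP-2, differed by -0.54 (adjusted p = 0.366), the adaptor Dab2 by -0.21 (adjusted p = 0.523) and the endosomal tether Eea1 by -0.18 (adjusted p = 0.569).

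**Figure D4:**
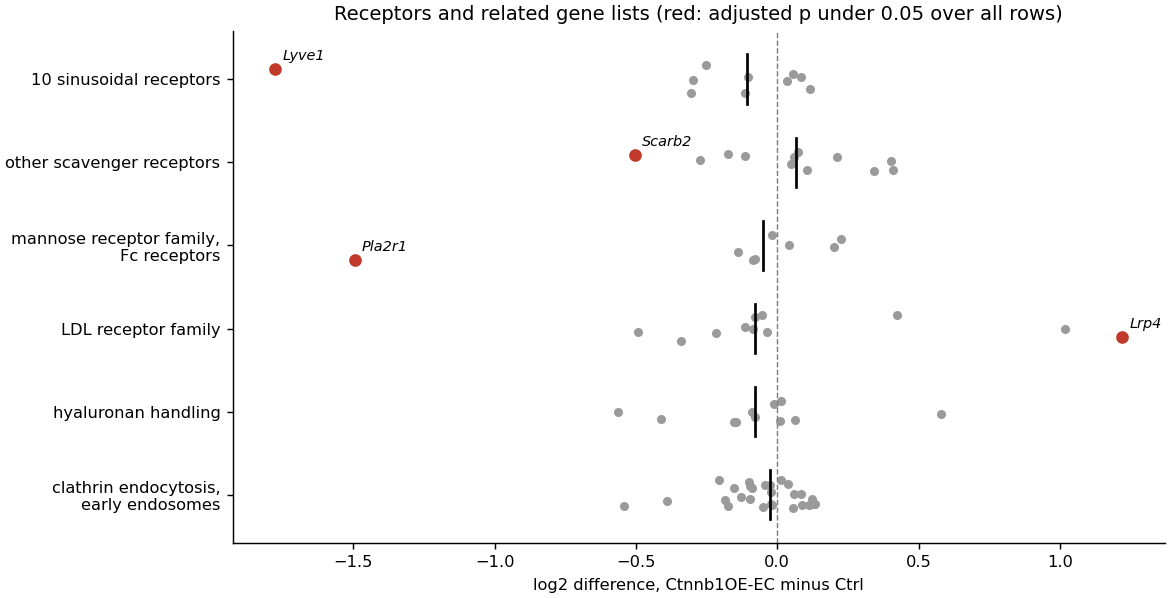
Difference in log2 expression, Ctnnb1OE-EC minus Ctrl, for every measured gene of the 10 receptors and of the 5 related lists (1 point per gene, black bar at the median of the list). Red points passed the test over all rows, and they are Lyve1 (-1.78), Scarb2 (-0.50), Pla2r1 (-1.49) and Lrp4 (1.22).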

How the data were processed

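RNA of LSECs was hybridized to MoGene-2_0-st arrays, 8 in all. The authors annotated them with a custom CDF (version 22, Entrez genes), corrected the background by RMA, applied quantile normalization and deposited log2 values (1.53 to 13.41). The genome build of the probes and the RMA version are not given in the sources used here. Quantile normalization fixes each array's distribution, so values are relative to the other genes. No sample was left out, and the number of arrays limits the precision. Symbols came from RefSeq through the Entrez identifier (24705 rows with 1 symbol, 723 with none).

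The genotypes were set against each other in limma (version 3.58.1, under R 4.3.3; lmFit, eBayes without trend). Tests were two-sided, and the Benjamini-Hochberg adjustment ran over the whole table. In simulated data 96.2% of log2 changes of 2 were called. This share does not apply to smaller changes. These include the differences of all the receptors, also that of Lyve1 (-1.78). Exact permutation tests used scipy. P-values measure the spread between pools of 2 mice.

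The receptors and lists were chosen with earlier results of these data known. Named were all 10 receptors, up to 4 genes of each related list by p, up to 3 of each marker list by change together with defining markers, 3 rows most like a called receptor, and Ctnnb1 and Axin2. The marker lists cover endothelial, Kupffer, hepatocyte, stellate and fibroblast, B, neutrophil and monocyte, T and NK, megakaryocyte and erythroid, and lymphatic endothelial cells. Alternatives were an ordinary one-way analysis of variance of each row (the study names this kind of test, but its software and settings were not used here, so the counts are not those of the study), other priors, weights, scalings, filters, thresholds and samples left out, and the replicate number as a block.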

Additional observations from a re-analysis of the deposited data

Results flagged for a closer look

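None of the 10 receptors had a sample past Dixon's limit. Past it, the gap to the nearest other sample exceeds 0.829 of the range of the group. The limit is relative, so a sample inside it can still lie far off. Lrp1 in Ctrl replicate 3 (6.33, others 7.42 to 8.07) is such a case. Among 64 genes (128 groups of 4 samples), 7 groups had 1 sample whose gap to the nearest other exceeded Dixon's limit, and chance alone gives about 1 in 20 groups. Among related genes, Cxcl16, a transmembrane chemokine that binds oxidized LDL, was low in Ctnnb1OE-EC replicate 4 (10.5, others 10.9 to 11.0). Fcgrt was high in Ctrl replicate 2 (12.3, others 12.1 to 12.2). Among markers, Clec4g was high in Ctrl replicate 1 (12.92, the others all at 12.87). Cd3g of T cells was low in Ctnnb1OE-EC replicate 4 (3.79, others 5.55 to 5.80). The lymphatic marker Mmrn1 was low in Ctnnb1OE-EC replicate 1 (6.11, others 8.54 to 8.84), and Pdpn was low in the same sample (4.70, others 5.39 to 5.49). Pdpn was also low in Ctrl replicate 3 (4.92, others 5.16 to 5.18).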

How the results depend on the processing

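Lyve1 was lower under all 18 alternatives and called in 14. The analysis of variance, the other prior, the filters and the replicate block leave the difference itself at -1.78. The scalings hardly move it on arrays that were already quantile normalized. These alternatives are thus no separate checks of its direction. Lyve1 was not called by an ordinary one-way analysis of variance of each row, without limma's moderation (-1.78, adjusted p = 0.130). Nor was it called without Ctnnb1OE-EC samples 3 and 4, which stood apart on the first principal component (-1.98, limma adjusted p = 0.0756). With 1 sample left out its difference ranged from -1.97 to -1.57 (adjusted p 0.0167 to 0.0712). The number of receptors called was 0 by the analysis of variance, without those 2 samples and at an adjusted p under 0.01, and 0 to 1 with 1 sample left out. The number of all rows called, 234, became 20 by the analysis of variance, 86 with the replicate block, 61 without samples 3 and 4, 68 at 0.01, 386 at 0.1, and 92 to 223 with 1 sample left out. The 3 calls of the related lists became 0 by the analysis of variance, 1 with the replicate block, 1 without samples 3 and 4, 1 at 0.01 and 1 to 2 with 1 sample left out. Pla2r1 was called in 17, Lrp4 in 11 and Scarb2 in 7 of 18 alternatives, and Axin2 missed the threshold by the analysis of variance (adjusted p = 0.0507). Lrp1 changed sign with array weights (-0.11) and without samples 3 and 4 (-0.17), and ranged from -0.30 to 0.28 with 1 sample left out. Ly75 changed sign without samples 3 and 4 (0.056) and ranged from -0.20 to 0.021 with 1 left out. The causes of these changes were not tested. Same-numbered samples did not deviate together (correlations 0.253, -0.177, 0.0275 and -0.153, with 1 of 4 over 0.1, and 1 of 4 samples closest to its own number), so the numbers were not taken as pairs. With the replicate block Lyve1 was at -1.78 (adjusted p = 0.0423).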
